A study of Rattus norvegicus with 10 samples.

Results

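The genes described here encode the phosphodiesterase families that ibudilast inhibits: Pde3a and Pde3b, Pde4a to Pde4d, Pde10a and Pde11a. They were chosen by symbol as the rows of these families, and all 8 were found among the 17168 rows of the count table. The tissue was left hippocampus, and the animals were 10 male TgF344-AD rats, a line used to model Alzheimer's disease whose transgenes include human APP with the Swedish mutation under the mouse prion promoter. The transgenes are carried by every rat in both groups, so the comparison is between treated and untreated transgenic animals and non-transgenic rats were not analysed here. The 5 untreated rats ate plain chow, and the 5 ibudilast rats ate chow with the drug from 5 months of age for 6 months. All tissue was taken at 11 months, after perfusion under ketamine and xylazine. The series text says that tissue of the ibudilast rats had been stored in RNAlater-ICE, a dyed reagent for frozen tissue, and does not say so of the untreated rats. Treatment and storage cannot be told apart in any result below.

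Cyclic nucleotide phosphodiesterases end cAMP and cGMP signals by hydrolysing the messenger. PDE4 enzymes act on cAMP alone, while PDE3 enzymes, PDE10A and PDE11A act on both nucleotides. The action of PDE3 enzymes on cAMP is slowed by cGMP. In the hippocampus cAMP acts through protein kinase A, EPAC proteins and HCN channels, and through CREB, a transcription factor tied to synaptic plasticity and memory. CREB binds the palindromic cAMP response element, and several phosphodiesterase promoters are known to respond to cAMP.

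To show the sequences just upstream of these genes, the 250 bases before annotated starts were taken from RefSeq (GRCr8). They were searched on both strands for the complete element TGACGTCA and for its half-site TGACG, which the complete element contains. Windows were listed for 6 of the 8 genes, 17 in all, and Pde3b and Pde4c had no entry. The complete element was in 0 of the 17 windows, against 1.59% of 33465 windows of all genes. The half-site was in 5 of the 17, against 18.2% of all windows. Of the 4 windows of Pde4a 2 held it, of the 5 of Pde4d 2, of the 2 of Pde10a 1, and none was found in the 2 of Pde4b, the 3 of Pde11a and the 1 of Pde3a. The windows printed here are those of Pde4d and Pde10a with 2 half-sites each, a Pde4a window with 1 and a Pde4b window with 0, because these are the most abundant PDE4 transcripts and the PDE10 transcript whose levels are compared below. Capitals mark the half-site on either strand.
Pde4d, chr2:42592499-42592748, plus strand: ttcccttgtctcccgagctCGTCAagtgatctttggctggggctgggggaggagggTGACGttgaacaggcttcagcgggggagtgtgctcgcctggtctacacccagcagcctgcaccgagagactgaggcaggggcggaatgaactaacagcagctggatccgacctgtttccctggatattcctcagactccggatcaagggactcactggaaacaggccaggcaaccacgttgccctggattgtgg
Pde10a, chr1:54765669-54765918, minus strand: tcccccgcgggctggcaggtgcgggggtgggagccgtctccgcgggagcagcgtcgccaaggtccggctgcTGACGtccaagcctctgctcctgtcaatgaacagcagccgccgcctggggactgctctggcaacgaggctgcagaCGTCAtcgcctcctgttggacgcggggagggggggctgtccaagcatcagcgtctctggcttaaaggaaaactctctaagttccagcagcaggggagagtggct
Pde4a, chr8:27999163-27999412, plus strand: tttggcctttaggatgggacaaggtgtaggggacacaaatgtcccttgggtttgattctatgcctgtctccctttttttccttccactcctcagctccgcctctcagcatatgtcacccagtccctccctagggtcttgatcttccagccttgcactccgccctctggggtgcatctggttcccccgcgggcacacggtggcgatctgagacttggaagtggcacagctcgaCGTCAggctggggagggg
Pde4b, chr5:122028706-122028955, plus strand: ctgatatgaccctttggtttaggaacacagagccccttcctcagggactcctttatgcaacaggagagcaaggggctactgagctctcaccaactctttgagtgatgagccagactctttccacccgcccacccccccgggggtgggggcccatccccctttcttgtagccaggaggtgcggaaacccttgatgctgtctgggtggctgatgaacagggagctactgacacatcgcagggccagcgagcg
A match is a run of letters and not evidence that CREB binds there, and the data hold no measurement of binding.

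Libraries held 14806807 to 18533520 counts. Levels are given as CPM, counts scaled to a common library size by TMM, a factor that aligns libraries on the bulk of their genes. Group differences were tested with edgeR's quasi-likelihood test over all 12355 genes that passed a low-count filter, with Benjamini-Hochberg adjustment and a threshold of 0.05. All 8 genes passed the filter. Replicates were separate rats. Markers of dentate granule cells, CA1 and CA3 were present in both groups, with summed levels of 89.2 to 316 CPM, 216 to 1211 CPM and 149 to 546 CPM per rat. Of these markers Tdo2 was at 0 in every library. Libraries differed in other tissue: 8 choroid plexus markers summed to 8185 CPM in untreated replicate 2 and 7423 CPM in ibudilast replicate 1, and to between 25.7 and 360 CPM in the others. Untreated replicate 3 and ibudilast replicate 4 had the lowest sums of 8 excitatory neuron markers in their groups. Results for the 8 genes were therefore also computed with 4 libraries left out, which are untreated 2 and 3 and ibudilast 1 and 4. They are given below where the call of a gene changed, and also for Pde3a and Pde4c.

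Most of the drug's target phosphodiesterases had lower transcript levels with ibudilast. Of the 8 genes 5 fell (Pde3a, Pde3b, Pde4b, Pde4d and Pde10a), 1 rose (Pde4c) and 2 did not pass (Pde4a and Pde11a). Changes were common in the whole table, where 22.8% of genes tested fell and 24.3% rose, 47.1% in all, so the count by itself does not set these genes apart. Their median log2 fold change was −0.69, beside 0.02 over all genes, and 7 of the 8 had an absolute log2 fold change above the all-gene median of 0.36. Values of the groups did not overlap for 3 of the 8, all lower with ibudilast, against 33.4% of genes tested (18.0% higher and 15.4% lower).

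**Figure D1:**
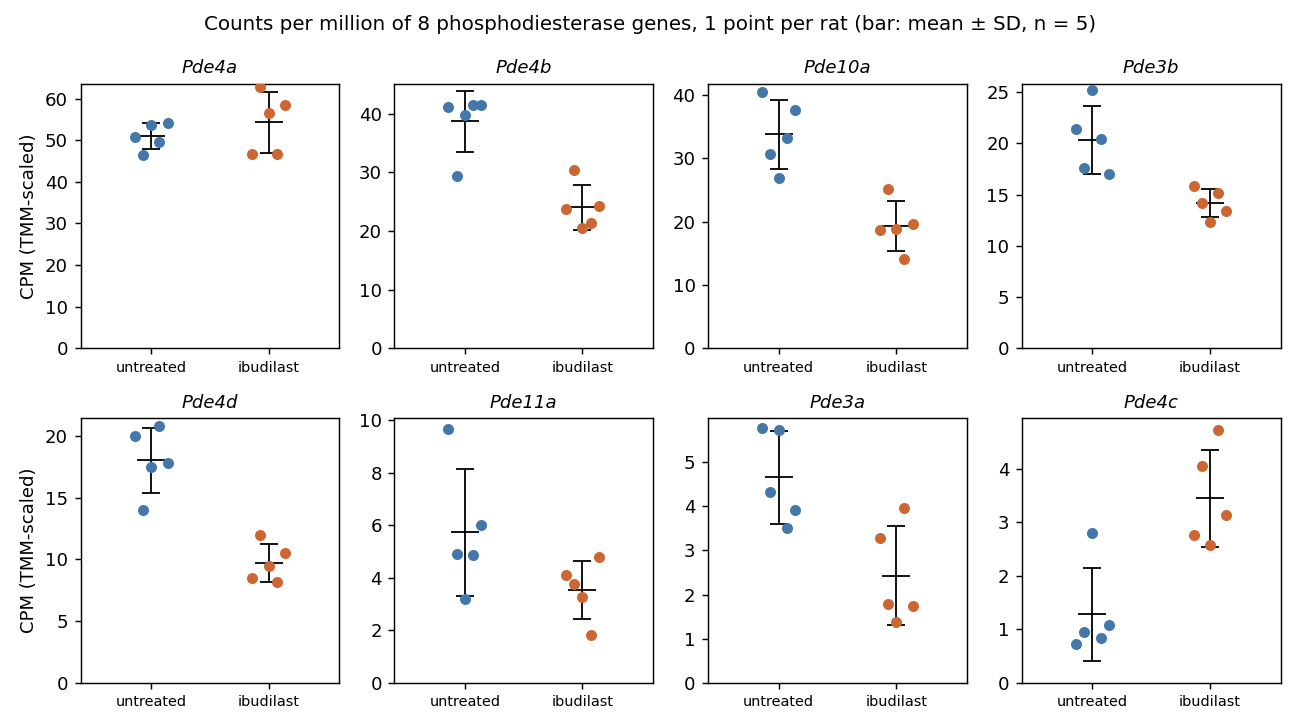
CPM of each gene (vertical axis, linear from 0) in untreated and ibudilast rats, with 1 point per rat and the mean ± SD of 5 rats, in order of mean abundance. Pde3b, Pde4d and Pde10a have no overlap between groups, while Pde4b overlaps through untreated replicate 2 (29.4 CPM) and ibudilast replicate 2 (30.4 CPM).

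By reads, Pde4a was the most abundant of the set, at a mean of 52.6 CPM over all rats and rank 3977 of the 12355 genes. It was followed by Pde4b (31.4 CPM, rank 5647), Pde10a (26.5 CPM, rank 6225), Pde3b (17.3 CPM, rank 7603), Pde4d (13.9 CPM, rank 8185), Pde11a (4.64 CPM, rank 10391), Pde3a (3.54 CPM, rank 10778) and Pde4c (2.36 CPM, rank 11254). These ranks are in CPM, not per length, and longer transcripts yield more reads. Transcript lengths were not used here, so the order is that of reads and not of molecules. Neighbours in the order were not always apart. In untreated rats the ranges of Pde4b and Pde10a, of Pde3b and Pde4d, and of Pde11a and Pde3a overlapped. In ibudilast rats those of Pde4b and Pde10a, Pde10a and Pde3b, Pde11a and Pde3a, and Pde3a and Pde4c did. Pde4c was last in untreated rats and seventh in ibudilast rats, where it exceeded Pde3a in 4 of 5 animals. Among all genes Pde4b went from rank 4934 in untreated to 6498 in ibudilast rats, Pde10a from 5354 to 7225, Pde4d from 7388 to 9037 and Pde4a from 4048 to 3799.

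The cAMP-specific PDE4 genes moved in different directions. PDE4A is a PDE4 found widely in brain. Pde4a was at 50.9, 46.4, 53.6, 49.7 and 54.1 CPM in untreated replicates 1 to 5 and at 46.7, 62.8, 56.6, 46.7 and 58.6 CPM in ibudilast replicates 1 to 5. Of the ibudilast rats, 3 lay above the untreated range and 2 inside it. The log2 fold change was 0.09 ± 0.09 (SE), with a 95% interval of −0.12 to 0.30 and an edgeR adjusted p of 0.460. Without the 4 libraries it was 0.20 (adjusted p = 0.0368), a call on 3 rats a group.

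PDE4B binds the scaffold protein DISC1 and is also the main PDE4 of inflammatory responses in myeloid cells. Pde4b was at 41.2, 29.4, 39.8, 41.6 and 41.6 CPM in untreated and at 23.7, 30.4, 20.5, 21.3 and 24.3 CPM in ibudilast rats. Apart from untreated replicate 2, every untreated rat was above every ibudilast rat. The log2 fold change was −0.69 ± 0.13 (edgeR adjusted p = 0.00150).

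PDE4D takes part in the ending of receptor-driven cAMP signals together with beta-arrestins and has been studied as a target for memory. Pde4d was at 20, 14.0, 17.5, 20.8 and 17.8 CPM in untreated and at 8.52, 12, 9.48, 8.21 and 10.5 CPM in ibudilast rats. The lowest untreated rat, replicate 2, was above the highest ibudilast rat, also replicate 2. Pde4d fell by 0.88 ± 0.14 on the log2 scale to 54.1% of its untreated mean, with the smallest p of the 8 genes (edgeR adjusted p = 5.43e-04).

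PDE4C is the PDE4 with the lowest level in these libraries. Pde4c was at 0.721, 0.948, 2.81, 0.833 and 1.08 CPM in untreated and at 2.76, 4.05, 2.58, 4.73 and 3.13 CPM in ibudilast rats. Untreated replicate 3 stood among the ibudilast rats and the other untreated rats were below all of them. These levels rest on 12 to 80 counts per library, against 776 to 1055 for Pde4a. Pde4c rose by a log2 fold change of 1.43 ± 0.38 (edgeR adjusted p = 0.00986), which was 1.91 without untreated replicate 3 and 1.27 without ibudilast replicate 4. Without the 4 libraries it was 1.88. On the log2 scale with a pseudocount of 1 on the authors' normalized values it was 0.99, still past the threshold.

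**Figure D2:**
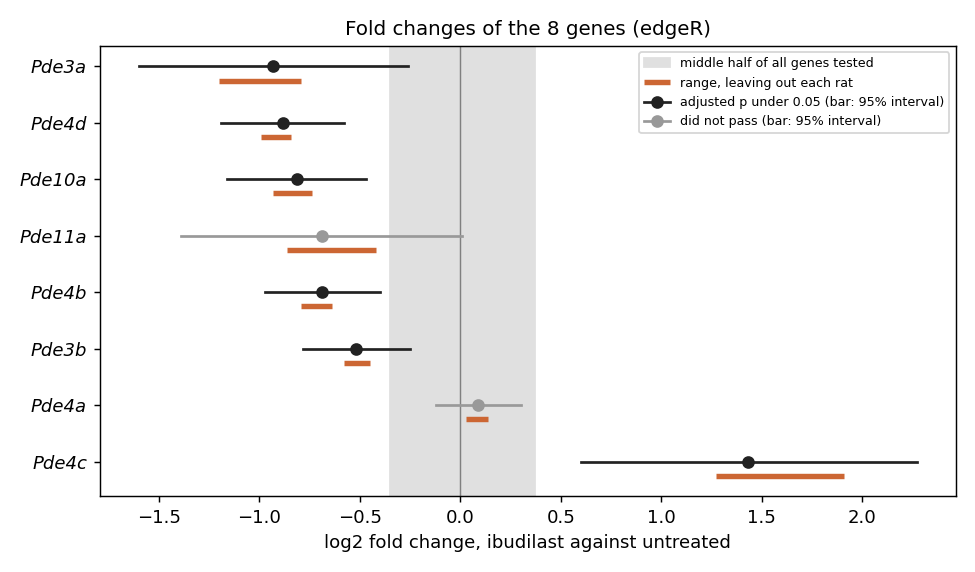
Log2 fold change of each gene, ibudilast against untreated (horizontal axis), with the 95% interval as a bar and, in orange, the range when each rat is left out in turn. The grey band covers the middle 50% of all genes tested. Pde4c is on the positive side at 1.43, Pde4a sits at 0.09 and the other genes lie between −0.93 and −0.52.

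Summed over the family, PDE4 reads were 109 ± 10.2 CPM in untreated against 91.5 ± 11.7 CPM in ibudilast rats (SD, n = 5), and the groups overlapped. The make-up of that sum differed. Pde4a gave 44.0 to 51.2% of PDE4 reads in untreated and 57.2 to 63.5% in ibudilast rats, and Pde4d 15.4 to 18.4% and 10.1 to 11.0%. Pde4b gave 32.4 to 36.8% in untreated and 23.0 to 29.0% in ibudilast rats. Pde4c went from 0.639 to 2.47% in untreated to 2.90 to 5.84% in ibudilast rats. None of these 4 shares overlapped between the groups. The shares add up to the whole in each rat, so they are not separate results. Groups did not overlap for 33.4% of single genes tested, and shares within other families were not computed. Shares of reads do not depend on the scaling of libraries.

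**Figure D3:**
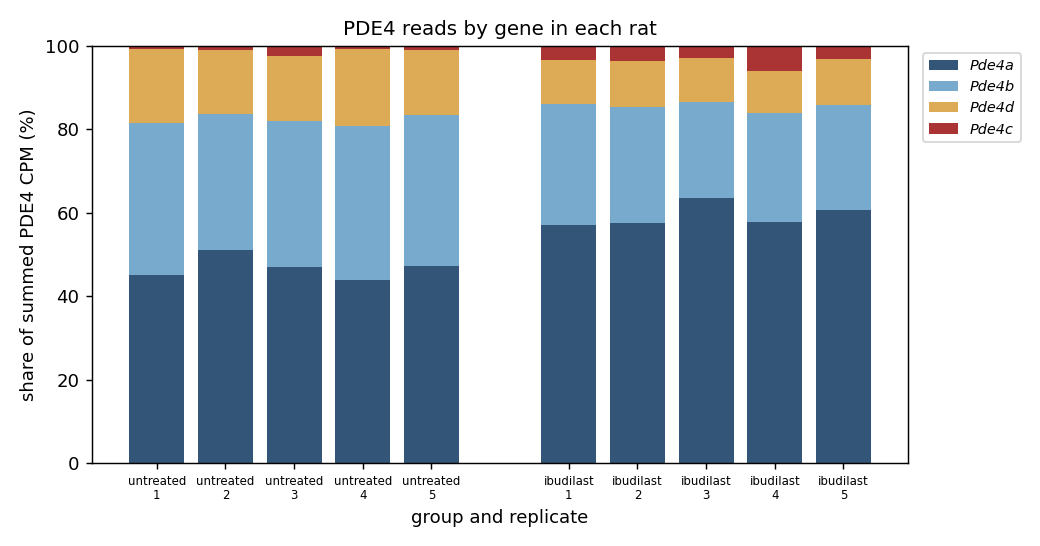
Share of summed PDE4 reads (vertical axis, percent) held by each PDE4 gene in every rat, stacked to 100%. The Pde4a part is at most 51.2% in the untreated rats and at least 57.2% in the ibudilast rats, while the Pde4d part is at least 15.4% and at most 11.0%.

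Whether members of a family moved unequally was tested on the log2 ratio of their counts within each rat, for the 6 PDE4 pairs and the PDE3 pair, by an exact two-sided permutation test over all assignments of the rats to the groups, adjusted over the 7 ratios. The smallest p that this design allows is 0.00794. The 6 PDE4 ratios share genes and are not independent, and ratios of other gene pairs were not computed. The ratio of Pde4a to Pde4d went from 2.85 in untreated to 5.56 in ibudilast rats (geometric means), a difference of 0.97 in log2 (exact p = 0.00794, adjusted p = 0.0139). It was 1.25 to 1.73 in log2 in untreated and 2.38 to 2.57 in ibudilast rats. The ratio of Pde4a to Pde4b differed by 0.77 in log2, of Pde4b to Pde4c by −2.25 and of Pde4c to Pde4d by 2.45, each at the same exact p and without overlap. Pde4a to Pde4c differed by −1.48 (exact p = 0.0159, adjusted p = 0.0222). Pde4b to Pde4d, the pair that fell together, differed by 0.19 (exact p = 0.0397, adjusted p = 0.0463), and this call was lost without untreated replicates 1, 2 or 4 or ibudilast replicates 1, 2 or 4 (0.15 to 0.19, adjusted p = 0.0714 to 0.0926 by the exact permutation test).

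The PDE3 genes were both lower. PDE3B is best known from adipocytes, hepatocytes and beta cells, where it lowers cAMP downstream of insulin. Pde3b was at 21.4, 17.6, 25.2, 20.4 and 17.0 CPM in untreated and at 15.8, 14.2, 12.3, 15.2 and 13.4 CPM in ibudilast rats. All untreated rats were above all ibudilast rats, by a small gap between 17.0 and 15.8 CPM. The log2 fold change was −0.52 ± 0.12 (edgeR adjusted p = 0.00502). Counts of Pde3b were not whole in any of the 10 libraries, alone among the 8 genes, which means that some of its reads were divided between features, and its level is uncertain to that extent. Cyp2r1, LOC134483775 and LOC102548890 are annotated as overlapping Pde3b in GRCr8. Cyp2r1 did not pass the low-count filter, and the other symbols were not in the count table. Which feature shared the reads of Pde3b is not known here.

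PDE3A is the PDE3 of heart, platelets and vascular smooth muscle. Pde3a was at 5.77, 4.32, 5.74, 3.52 and 3.92 CPM in untreated and at 3.28, 1.79, 1.39, 3.96 and 1.74 CPM in ibudilast rats. Ibudilast replicate 4 lay inside the untreated range and replicate 1 just under it. The log2 fold change was −0.93 ± 0.30 (edgeR adjusted p = 0.0265) on 20 to 96 counts per library. The call was lost without untreated replicate 1 (−0.84, edgeR adjusted p = 0.0630) and without ibudilast replicates 2 (−0.84, 0.0625), 3 (−0.79, 0.0541) or 5 (−0.83, 0.0636). Library size alone as the scaling also ended it (−0.84, edgeR adjusted p = 0.0546), while without the 4 libraries the value was −1.42. Of 7 mural and smooth muscle markers tested, 2 fell (Rgs5 and Abcc9), 0 rose and 5 did not pass. The 8 markers of that list in the table summed to 113 to 190 CPM in untreated against 95 to 335 CPM in ibudilast rats, with the highest sum in ibudilast replicate 4, and none was at 0 throughout. Their part in the Pde3a result was not tested.

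The ratio of Pde3a to Pde3b was −2.13 ± 0.24 in log2 in untreated and −2.64 ± 0.51 in ibudilast rats (SD, n = 5). That difference of −0.51 did not pass (exact permutation p = 0.0873, adjusted p = 0.0873), and it passed without ibudilast replicate 4 (−0.68, exact permutation test, adjusted p = 0.0278). The data thus do not show that the PDE3 genes moved unequally, nor that they moved alike.

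PDE10A is known for its very high level in the medium spiny neurons of the striatum, and it is lower in hippocampus. Pde10a was at 40.5, 30.7, 26.9, 33.3 and 37.6 CPM in untreated and at 18.6, 25.2, 18.8, 14.1 and 19.6 CPM in ibudilast rats. The groups did not overlap, with 26.9 CPM in the lowest untreated rat and 25.2 CPM in the highest ibudilast rat. The log2 fold change was −0.81 ± 0.16 (edgeR adjusted p = 0.00169). Of 8 striatal markers tested, 1 rose (Rgs9), 0 fell and 7 did not pass. Their sum was 144 to 298 CPM in untreated against 197 to 262 CPM in ibudilast rats, and none was at 0 throughout. Untreated replicate 3 had the highest striatal sum and the lowest Pde10a of its group. Its sum of excitatory neuron markers was also the lowest of the untreated rats (3618 CPM). Ibudilast replicate 4 had both the lowest Pde10a and the lowest excitatory sum (674 CPM) of the ibudilast rats. The part of tissue make-up in the Pde10a result was not tested.

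PDE11A in the rodent brain is known mainly from the ventral hippocampus, where it has been tied to social memory. Pde11a was at 9.68, 4.90, 3.18, 4.87 and 6.02 CPM in untreated and at 4.09, 3.75, 3.28, 1.83 and 4.80 CPM in ibudilast rats. Untreated replicate 1 was far above the rest and untreated replicate 3 below 4 of the 5 ibudilast rats. The log2 fold change was −0.69 ± 0.32, with a 95% interval of −1.39 to 0.01, and did not pass (edgeR adjusted p = 0.0979). It was −0.42 without untreated replicate 1, and passed without untreated replicate 3 (−0.86, edgeR adjusted p = 0.0342) and without the 4 libraries (−0.79, 0.0305).

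Rats differed together in several of these genes beyond their group. After each group's mean was subtracted, log2 CPM of Pde4b and Pde4d correlated at 0.85 over the 10 libraries, Pde10a and Pde11a at 0.81 and Pde4a and Pde4d at 0.75. Pde4c and Pde11a had the lowest value, −0.72, and Pde3a and Pde4a were at −0.67. These are descriptions over 10 libraries that share scaling and tissue make-up, and carry no test.

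Among 9948 other genes, the most alike by the same measure were Syt11 (0.96), Kpna1 (0.96) and Usp22 (0.95) for Pde10a. Syt11, a synaptotagmin of vesicle traffic, was at 424 CPM in untreated against 237 CPM in ibudilast rats. For Pde11a they were Slitrk4 (0.97), Opa1 (0.96) and Fam65b (0.95), and for Pde4d Omg (0.94), Aff3 (0.93) and Ldb2 (0.93). All of these except Omg had log2 fold changes between −1.14 and −0.58, and Omg, a myelin glycoprotein, was at −0.38. For Pde4c they were Dbp (0.98), a clock-output transcription factor, Nckap5l (0.96) and Eno3 (0.95), each higher with ibudilast at 0.59 to 1.37. The other genes had mixed neighbours: Myt1l (0.96), Sult2b1 (0.95) and Taf6l (0.95) for Pde4a, Cnbd2 (0.93), Steap3 (0.90) and Dctpp1 (0.89) for Pde4b, Asl (0.95), Pfkfb4 (0.93) and Igfbp5 (0.90) for Pde3a, and Tlr6 (0.95) and Abcc5 (0.92) for Pde3b. Tlr6 rose from 8.94 to 23.8 CPM while Pde3b fell, so likeness within groups did not always go with the same direction of group difference. All of these genes were picked for the highest correlations among 9948 genes over 10 libraries. Their values are therefore high in part by selection, and carry no test.

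Cell type markers also differed between the groups, and their counts stand beside the 22.8% of all genes tested that fell and the 24.3% that rose. The 8 excitatory neuron markers summed to 3618 to 5629 CPM in untreated against 674 to 3280 CPM in ibudilast rats, with 3 lower, 0 higher and 5 not passing. The sum of 674 CPM was that of ibudilast replicate 4, and the other ibudilast rats were at 2447 to 3280 CPM. The 10 oligodendrocyte markers summed to 7679 to 14974 CPM and 15715 to 18679 CPM, with 7 higher, 0 lower and 3 not passing. The 8 microglia markers summed to 406 to 791 CPM and 323 to 398 CPM, and the 8 endothelial markers to 321 to 595 CPM and 154 to 299 CPM, with 5 lower, 0 higher and 3 not passing in each list. None of these markers was at 0 throughout. Of 7 astrocyte markers 4 fell and of 8 interneuron markers 2 fell and 1 rose, with overlapping sums. Of 6 oligodendrocyte precursor markers 2 fell, 1 rose and 3 did not pass, also with overlapping sums. Rows of ribosomal RNA took 4.07 to 11.41% of counts in untreated and 5.88 to 11.94% in ibudilast rats. In whole hippocampus, fewer cells of a type and less RNA per cell cannot be told apart, and the part of these shifts in the phosphodiesterase results was not tested.

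The rest of the pathway was taken from lists of cyclic nucleotide genes. Of 11 other phosphodiesterases tested, 4 fell, 2 rose and 5 did not pass (median log2 fold change −0.22). Pde1a, a calcium- and calmodulin-activated enzyme, went from 54.6 ± 14.3 to 26.6 ± 7.97 CPM and the cAMP-specific Pde8b from 35.1 ± 7.46 to 22 ± 2.62 CPM, while its paralog Pde8a rose from 19.8 ± 2.65 to 28.1 ± 2.88 CPM (SD, n = 5).

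Upstream, where cAMP is made, 2 of 10 adenylyl cyclases fell, 1 rose and 7 did not pass (median −0.01). The calcium-stimulated cyclase gene Adcy1 went from 341 ± 52.8 to 129 ± 38.1 CPM and Adcy9 from 28.3 ± 9.24 to 12.8 ± 3.50 CPM, and Adcy6 rose from 48.8 ± 8.84 to 64.3 ± 10.2 CPM (SD, n = 5). The cyclase reads summed to 875 to 955 CPM in untreated against 560 to 727 CPM in ibudilast rats. Adcy1 had the most reads of the cyclases in untreated rats, so it weighs most in that sum.

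Downstream, 6 of 9 genes of protein kinase A and its inhibitors fell, 0 rose and 3 did not pass (median −0.58). Pkia, which encodes an inhibitor of the kinase, was at −1.25 ± 0.09, the catalytic subunit gene Prkacb at −1.11 ± 0.13 and the regulatory subunit gene Prkar1a at −0.85 ± 0.07 (log2 fold change, SE). Of 10 cAMP effectors 3 rose, 3 fell and 4 did not pass (median 0.06). The effector reads summed to 422 to 498 CPM in untreated against 542 to 864 CPM in ibudilast rats, with the highest sum in ibudilast replicate 4. Creb1 was at −0.80, and the CREB coactivator genes parted, with Crtc1 at −0.63 and Crtc2 at 0.64. Of 8 genes of cGMP signalling 5 fell, 2 rose and 1 did not pass (median −0.98), with the cGMP-dependent kinase gene Prkg1 at −1.54, the neuronal nitric oxide synthase gene Nos1 at −1.03 and the guanylyl cyclase subunit gene Gucy1b3 at −0.94.

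Among 10 genes for proteins that bind or anchor these phosphodiesterases, 3 fell, 3 rose and 4 did not pass (median 0.01). Akap6, an anchor of protein kinase A, was at −0.99, the beta-arrestin gene Arrb1 at −0.56 and Pde4dip, or myomegalin, a PDE4D-binding protein, at −0.36. Of 15 genes known as CREB targets 9 fell, 0 rose and 6 did not pass (median −0.66), with the prohormone convertase gene Pcsk1 at −1.12, Egr1 at −1.27 and the nuclear receptor gene Nr4a3 at −1.66. These counts stand beside the 22.8% of all genes that fell and 24.3% that rose.

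**Figure D4:**
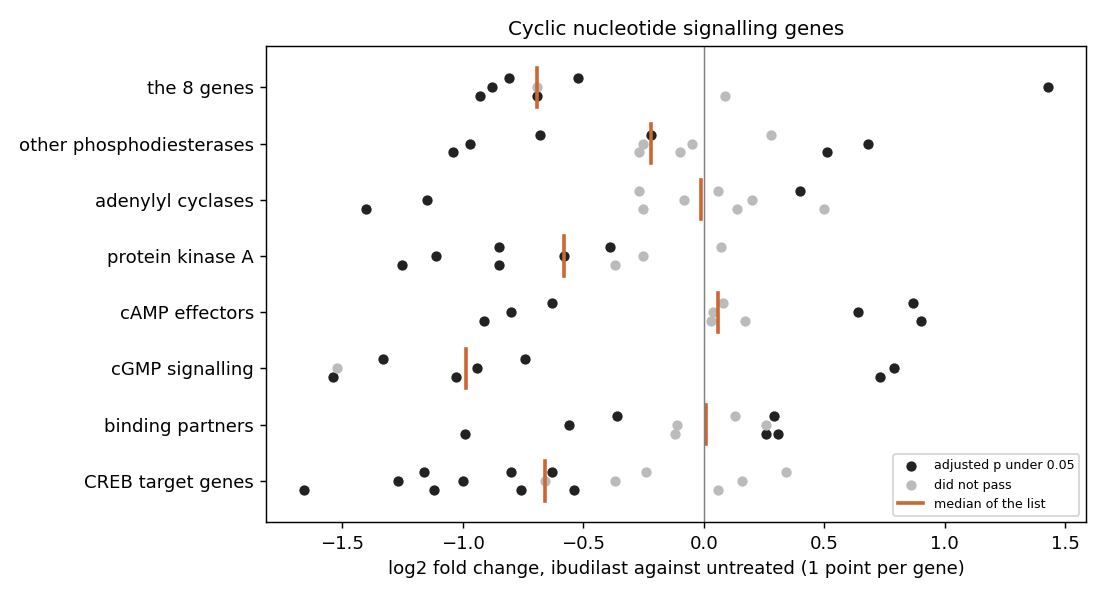
Log2 fold change, ibudilast against untreated (horizontal axis), of the 8 target phosphodiesterases and of each list of cyclic nucleotide genes, with 1 point per gene, black where the adjusted p was under 0.05, and the list median in orange. The medians of the 8 genes (−0.69) and of the other phosphodiesterases (−0.22) are on the negative side. So are those of protein kinase A genes (−0.58), cGMP genes (−0.98) and CREB targets (−0.66). Those of cyclases, effectors and binding partners are between −0.01 and 0.06.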

How the data were processed

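The deposited table of expected counts per gene symbol was estimated by the authors and not normalized. A second deposited table holds a normalized signal, each count divided by a TMM-scaled library size. Tools in the submitters' processing notes, listed without roles, are edgeR, RSEM 1.2.15, bcl2fastq and Bowtie2 2.1.0, with rn6 as the build. The annotation was not given in the sources used here. Values that were not whole made up 12% of the table and were rounded. Of the rows 0 had no name, and 0 columns were unmatched. Whole reads were recovered from the signal for 100% of values within 0.01, and the test on them, an alternative chosen after seeing the data, called 5817 genes, as did the test on rounded counts.

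Group was the single term of a robust quasi-likelihood fit in edgeR 4.0.16 (under R 4.3.3, with limma 3.58.1), after filterByExpr and TMM, and the script was checked on simulated counts. Log2 CPM used a prior count of 2 and ratios an added 0.5. No pair of libraries of 1 group agreed within sampling noise (lowest chi-square per gene 11.5). The genes and lists were chosen with earlier results of these data known. Genes named were the 8, the 3 most alike each by correlation within groups among genes of at least 5 CPM, and up to 3 per pathway list by smallest p, except an item that is not reported here. Alternatives were other scalings, filters, DESeq2 1.42.0, limma-voom, limma-trend, a replicate block and left-out libraries. Sequences were from RefSeq tables of GRCr8 matched by symbol, and no coordinates of that build were joined to the rn6 counts.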

Additional observations from a re-analysis of the deposited data

Results flagged for a closer look

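Values of the 8 genes and of the 7 ratios were examined in each group of 5 rats, 30 sets in all, for a rat far from the rest by Dixon's test, which chance alone would pass in about 1 set of 20. In 5 sets a rat stood apart. Pde4b was at 29.4 CPM in untreated replicate 2, with 39.8 to 41.6 CPM in the other untreated rats. Pde4c was at 2.81 CPM in untreated replicate 3, with 0.721 to 1.08 CPM in the others, and the log2 ratio of Pde4a to Pde4c was 4.24 in that rat, with 5.57 to 6.08 in the others. In ibudilast replicate 4 the log2 ratio of Pde4b to Pde4c was 2.17, with 2.90 to 3.09 in the other ibudilast rats, and that of Pde4c to Pde4d was −0.79, with −1.87 to −1.56 in the others. These sets share genes and rats and are not independent.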

How the results depend on the processing

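Pde3b, Pde4b, Pde4d, Pde10a and Pde4c kept their direction and their call under the alternatives run, and Pde4c ranged from 0.99 to 1.91. Leaving out each rat gave −1.20 to −0.79 for Pde3a, −0.86 to −0.42 for Pde11a, 0.03 to 0.14 for Pde4a, −0.68 to −0.39 for the log2 ratio of Pde3a to Pde3b and 0.15 to 0.24 for that of Pde4b to Pde4d. Pde3a was at −0.84 with library size alone, and −0.93 did not pass at a threshold of 0.01, where 1859 genes in all fell against 2813 at 0.05. With untreated 2 and 3 and ibudilast 1 and 4 left out together, Pde4a (0.20) and Pde11a (−0.79) also passed. In that fit 2 of the 8 genes rose and 6 fell. More genes passed in the whole table as well, 6857 of 12325 (3483 higher and 3374 lower), against 5817 of 12355 in the main fit. The cause of the added calls was not tested. With the replicate block 4726 genes passed against 5817, 6 of the 8 genes in both fits. Deviations of same-numbered rats correlated at −0.33 to 0.42 and 0 of 5 untreated rats correlated best with their own number, so the numbers pair nothing by the data. For the ratios the block allows no p under 0.0625, and 3 rats a group none under 0.1. Without the 4 libraries the log2 ratio of Pde3a to Pde3b differed by −0.83 and that of Pde4c to Pde4d by 2.72. The order of the 8 genes by reads was the same with library size alone and in the authors' normalized values. Depth limits Pde4c, Pde3a and Pde11a most, with 12 to 161 counts per library.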

Other observations

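In the GRCr8 gene order, Pde4c lies beside Rab3a, a synaptic vesicle gene that was at 672 CPM in untreated against 536 CPM in ibudilast rats (log2 fold change −0.33, edgeR adjusted p = 0.0791), while Pde4c itself was at 1.28 and 3.45 CPM. Pde4a lies between Cdc37, a kinase co-chaperone gene (log2 fold change 0.21, edgeR adjusted p = 0.0632), and Keap1, the repressor of NRF2, which rose from 90.2 to 114 CPM (0.34, 0.00151). Pde3a lies beside the brain endothelial transporter gene Slco1c1, which fell from 109 to 56.7 CPM (−0.94, edgeR adjusted p = 0.00234). Whether reads of neighbouring genes entered the counts was not tested.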
